A study of Danio rerio with 45 samples.

Results

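The genes described here encode the nuclear subunits of the oxidative phosphorylation complexes in zebrafish (Danio rerio) embryos. Members were chosen by a rule on symbols that uses no measured value, though earlier results of these data were known. It takes all probes whose RefSeq accession maps to a symbol beginning with nduf, sdha, sdhb, sdhc, sdhd, uqcr, cox4, cox5, cox6, cox7, cox8 or atp5. The ndufaf assembly factors are left out. The rule took 156 probes of 92 genes out of 43603 probes and 13633 gene symbols on the array. Complex I has 58 probes of 39 genes, complex II 10 probes of 5 genes, complex III 16 probes of 7 genes, complex IV 26 probes of 18 genes and complex V 37 probes of 18 genes. The prefix sdha also took in 5 probes of the complex II assembly factors sdhaf2, sdhaf3 and sdhaf4, and the prefix atp5 took in 4 probes of the ATP synthase inhibitors atp5if1a and atp5if1b. These 9 probes are members and are described apart from the subunits. The probes of ndufa4a and ndufa4b are counted in complex I by their prefix. Of 101 symbols that the rule takes from the annotation, 9 had no probe (cox4i1l, cox5bb, cox7a2b, ndufa4l2a, ndufa9b, ndufb1, ndufv3, sdhaf1 and uqcr10).

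Gene expression was measured on 45 one-colour arrays. Embryos were collected at the 1-2 cell, shield and 5-somite stages and on days 1 and 2 after fertilization (1 dpf and 2 dpf), which makes 5 stages. The 3 genotypes were wild type (WT), a mutant of the DNA methyltransferase gene dnmt3aa, labelled dnmt3aa-/- and described in the methods as maternal-zygotic (MZdnmt3aa-/-), and a mutant of the related gene dnmt3bb.2, labelled dnmt3bb.2-/-. Whether the dnmt3bb.2-/- embryos also lacked the maternal product is not stated in the labels or the methods. Each of the 15 groups has 3 arrays, called replicates 1 to 3, each from a pool of 20 whole embryos for WT and MZdnmt3aa-/- according to the methods. The series design describes independent experiments, but p-values still measure only the spread between these arrays. In RNA from whole embryos, fewer cells of a type and less RNA per cell cannot be told apart.

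Oxidative phosphorylation takes place in the inner mitochondrial membrane. Complex I oxidizes NADH and complex II oxidizes succinate, both pass electrons to ubiquinone, complex III hands them to cytochrome c, and complex IV reduces oxygen. Complexes I, III and IV pump protons, and complex V, the ATP synthase, uses the proton gradient to make ATP. A few subunits are made from mitochondrial DNA, which no probe described here reports, and all others come from nuclear genes such as these. Before the zygotic genome becomes active, the transcripts of a 1-2 cell embryo are those the mother placed in the egg.

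Values are signal scores, the processed spot signal of each array scaled to a common trimmed mean, on the log2 scale. A log2 fold change of 1 is a doubling. A probe was called where limma, fitted over all probes that pass a filter on dim signal, gave an adjusted p of at most 0.01. Levels are compared between arrays for a probe, never between probes. On the 45 arrays 62.3% to 84.5% of features had a signal flagged as well above background, and none was saturated. Between 142 and 156 of the members had such a signal on each of a group's 3 arrays. The MZdnmt3aa-/- arrays lie on slides and a scan day of their own, so genotype and slide cannot be told apart for them. The dnmt3bb.2-/- arrays were scanned on the same days as the WT arrays but mostly lie on other slides: at 1-2 cell and 1 dpf only 1 mutant array shares a slide with WT of the stage, at shield and 2 dpf only 1 WT array shares one with the mutant, and at 5-somite none does. A fit with slide as a block therefore sets 1 array of an arm against the other arm, so a call lost in it says nothing about slide. The dnmt3bb.2 probe was lower on the arrays labelled dnmt3bb.2-/- at all 5 stages (log2 fold change -0.80, -2.06, -2.68, -2.09 and -0.88 in stage order, all called by limma). The dnmt3aa probe was higher, not lower, on the arrays labelled MZdnmt3aa-/- (0.59, 0.95, 0.54 and 0.62, called, and 0.79 at 2 dpf, limma adjusted p = 0.0123). Whether that probe lies in the mutated part is not known here, so it does not check the label. On replicate 1 of MZdnmt3aa-/- at 1-2 cell, summed signals of skeletal muscle markers were 65200, against 1685 to 3987 on the other 8 arrays of that stage, and blood and liver markers stood out in the same way. Without it, 101 of the 111 calls of that group were made, with no change of sign, and the exceptions and the counts by complex are given beside the results.

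In WT embryos, with arrays scaled to the common trimmed mean, most members reached their highest level at 2 dpf and their lowest at the shield stage. The maximum was at 2 dpf for 105 of 156 probes (67.3%, against 28.0% of 40139 probes on the array), and at 1 dpf for 30 (19.2% against 10.3%). Only 15 members (9.62%) had their maximum at 1-2 cell, where 33.1% of all probes had it. The minimum was at shield for 93 members (59.6%, against 21.4% of all probes) and at 1-2 cell for 43. These stages were not counted under other scalings, which shift the step from 1-2 cell to shield as given below.

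Each WT step was tested on the 15 WT arrays. No slide holds WT arrays of more than 1 stage, so stage and slide cannot be told apart. The WT 5-somite arrays were scanned on another day than all other WT arrays. Scan day therefore cannot be told apart from stage in the steps to and from 5-somite. From 1-2 cell to shield, 139 of 151 tested members were called, 39 higher and 100 lower, with a median log2 fold change of -0.44, where 84.3% of all probes were called (36.3% higher and 48.0% lower) and their median was -0.32. With each array scaled to its 75th percentile, the split of this step was 52 higher and 64 lower, and the median was -0.06 for members and 0.07 for all probes, so the direction of this step is read relative to all probes. That scaling adds 0.383 to every log2 fold change of the step, and a fall smaller than this becomes a rise. From shield to 5-somite, 118 members were higher and 10 lower of 155 (median 0.82, all probes 0.26), where 78.3% of all probes were called (45.5% higher and 32.8% lower). From 5-somite to 1 dpf, 129 were higher and 6 lower of 156 (median 0.74, all probes 0.00), against 70.0% of all probes called (35.7% higher and 34.3% lower). From 1 dpf to 2 dpf, 58 were higher and 8 lower (median 0.15, all probes 0.07), against 60.7% called (31.7% higher and 28.9% lower). Under the 75th percentile scaling the medians of the 3 later steps were 0.63, 0.59 and 0.11, with 0.07, -0.15 and 0.02 for all probes, and under quantile normalization they were 0.77, 0.67 and 0.09, with -0.08, -0.25 and -0.15 for all probes.

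**Figure D1:**
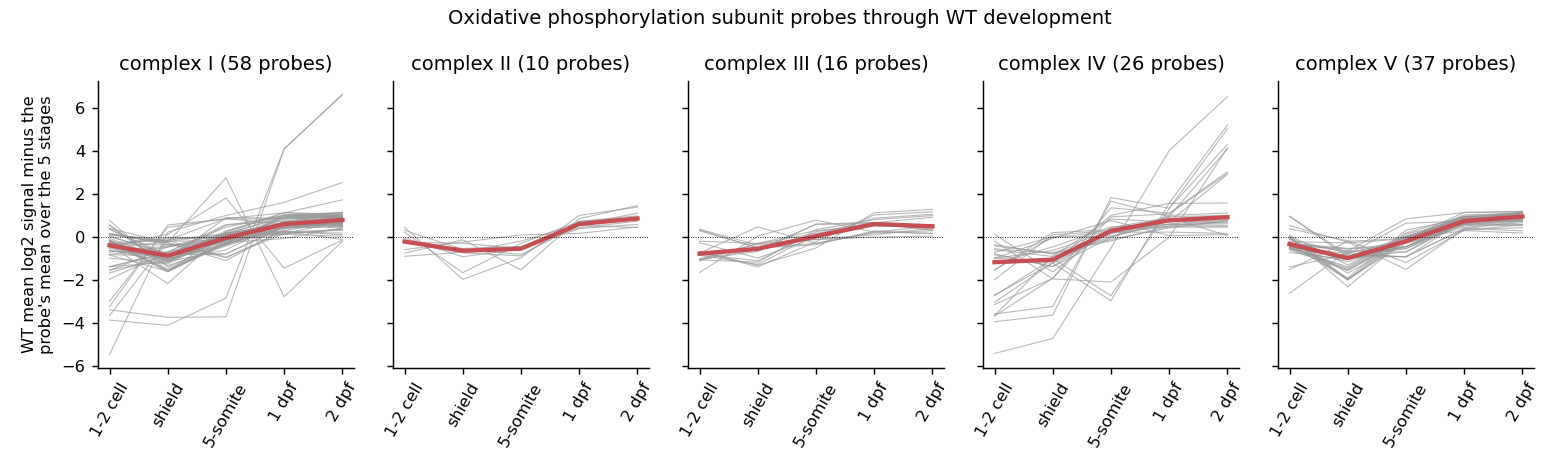
Level of each member probe over the 5 WT stages, in 5 panels for complexes I to V (58, 10, 16, 26 and 37 probes). The vertical axis is the mean log2 signal score of 3 arrays minus the probe's own mean over the stages, grey lines are probes and the red line is the median. Under this scaling to the trimmed mean, complex V probes had their minimum mostly at shield (29 of 37), and complex IV probes mostly at 1-2 cell (14 of 26).

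At the first step most probes of complexes I and V fell. Complex V had 33 of 37 probes called lower and 3 higher (median -0.64), and complex I had 36 lower and 16 higher of 56 (median -0.43). Complex IV had 13 probes called higher and 9 lower of 23 (median 0.72). The median of complex IV was 1.104 under the 75th percentile scaling and 0.06 under quantile normalization, that of complex V was -0.26 and -1.12, and that of complex I was -0.05 and -0.39. Complex III had 6 higher and 8 lower of 16, and its median changed sign with the scaling (-0.21, and 0.18 at the 75th percentile). All 5 probes of the sdhaf assembly factors fell (median -1.60), and these 5 had their maximum at 1-2 cell.

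From shield to 5-somite 45 of 57 complex I probes, 13 of 16 complex III probes, 21 of 26 complex IV probes and 28 of 37 complex V probes were called higher. Complex II had 5 higher and 2 lower of 10 there, with a median of 0.21, and 4 of its 10 probes had their minimum at 5-somite. The next step raised 35 of 37 complex V probes (median 1.01) and 9 of 10 complex II probes (median 1.09), with none lower in either complex. From 1 dpf to 2 dpf the medians by complex lay between 0.08 and 0.28. The levels of complex IV spread most over development, with a median range of 2.39 on the log2 scale, against 1.98 in complex I, 1.79 in complex II, 1.64 in complex III and 2.12 in complex V. Only 16 members, 10 of complex IV and 6 of complex I, covered a range of at least 16-fold, which 36.9% of all probes did. Both ndufa4b probes are among the 6 counted in complex I.

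Among the reference subunits, ndufs1, sdha and atp5f1b fell first and rose later. The falls of atp5f1b probe 1 and sdha probe 1 given below were smaller than the shift of the 75th percentile scaling at the first step. For sdhb probe 1 of complex II the rise from 1-2 cell to 2 dpf was 1.06, as large as its range over the stages. The 75-kDa iron-sulfur subunit of complex I, ndufs1, fell at the first step on both probes (ndufs1 probe 1 -0.99, ndufs1 probe 2 -0.93) and rose at the next 3 steps (0.55, 1.33 and 0.35 for probe 1). The catalytic beta subunit of the ATP synthase, atp5f1b, fell at the first step on all 5 probes (atp5f1b probe 1 -0.27, atp5f1b probe 2 -0.66) and then rose at each step (0.64, 0.63 and 0.26 for probe 1). The ubiquitous form of complex IV subunit 4, cox4i1, had already risen by shield (cox4i1 probe 1 2.10, cox4i1 probe 2 1.52). The flavoprotein subunit of complex II, sdha, fell on all 3 probes at the first step (sdha probe 1 -0.25, sdha probe 2 -0.88, sdha probe 3 -0.56) and rose between 5-somite and 1 dpf (0.87, 1.16 and 1.60). The Rieske iron-sulfur protein of complex III, uqcrfs1, fell at the first step on 3 probes (uqcrfs1 probe 1 -0.74, uqcrfs1 probe 3 -0.84, uqcrfs1 probe 4 -0.76), and their 2 dpf means minus their 1-2 cell means were -0.32, -0.17 and -0.12, while uqcrfs1 probe 2 rose by 1.22 and then fell by 0.77.

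The complex I members with the steepest rises at the first step were accessory subunits. For ndufa1, a small membrane subunit, ndufa1 probe 1 was not well above background on any 1-2 cell WT array (1.90, 3.38 and 2.46) and read 8.32, 8.21 and 8.31 at shield, at least 36.6-fold higher (limma, adjusted p = 2.41e-10), where the bound sets the bright mean against the lowest signal well above background. Its other probe, ndufa1 probe 2, was already well above background at 1-2 cell and rose by 3.53. The accessory subunit ndufa3, above background there as well, rose by 3.80 at this step, and ndufa12, another accessory subunit, by at least 4.56-fold. The steepest falls at this step were those of sdhaf3 (-2.90), of the complex II anchor sdhdb (sdhdb probe 1 -2.42) and of the complex I subunit ndufc1 (-2.37). The iron-sulfur subunit gene ndufs8b ran against the rest: ndufs8b probe 1 was highest at 5-somite (9.70, 9.04 and 9.48), not well above background on any WT array at 1 dpf, at least 46.5-fold lower there (adjusted p = 2.03e-11), and again at 6.26, 6.60 and 6.50 at 2 dpf.

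Several complex IV genes are known in mammals as tissue forms. The heart and skeletal muscle forms are cox6a2, cox7a1 and cox8b, and cox4i2 is the form linked to low oxygen. In WT embryos cox6a2 was not well above background before 5-somite and then rose at least 10.5-fold (cox6a2 probe 1) and 15.4-fold (cox6a2 probe 2). The gene cox8b rose by 4.15 between 1 dpf and 2 dpf, and cox5b2, a form of subunit 5b, by 2.22 (cox5b2 probe 1), 3.71 (cox5b2 probe 2) and 3.63 (cox5b2 probe 3). The gene cox6b1, a subunit on the intermembrane side, rose at least 10.9-fold by 5-somite and by 4.53 and 2.51 at the next steps. The largest step of any member was that of ndufa4b, whose mammalian counterpart is now counted as a complex IV subunit: ndufa4b probe 1 was not well above background up to 5-somite and rose at least 164-fold by 1 dpf (adjusted p = 1.61e-09). The few falls between 1 dpf and 2 dpf included cox7a1 (-0.84) and the inhibitor atp5if1a (atp5if1a probe 1 -0.70, atp5if1a probe 2 -0.72).

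At 1-2 cell most members were lower in MZdnmt3aa-/- than in WT. Of 151 members tested, 104 were called lower and 7 higher, with a median log2 fold change of -0.85, and 63 of the called members differed at least 2-fold. Of all probes tested 57.3% were called, 28.8% lower and 28.5% higher, with a median of 0.02, and 22.8% were called and differed at least 2-fold. By gene, 66 of 90 tested genes had a probe called lower and 6 a probe called higher, and none had both. The median of the members on each array relative to the WT mean was -0.83, -0.98 and -0.68 on the 3 MZdnmt3aa-/- arrays, and that of all probes was 0.06, -0.02 and -0.03. Without replicate 1 of MZdnmt3aa-/-, the array with muscle markers, 101 members were called, 96 of them lower, with a median of -0.87. Leaving out each array in turn gave 90 to 122 calls. The summed signal of oocyte markers was 113000 to 121100 in this group and 88030 to 90020 in WT, and its part in the result was not tested.

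The dnmt3bb.2-/- embryos, compared with the same 3 WT arrays, had 64 members called lower and 9 higher of 148 at 1-2 cell, with a median of -0.50. Among all probes 31.4% were called, 16.3% lower and 15.1% higher, and the median was 0.01. The array medians of the members were -0.42, -0.56 and -0.40. With slide as a block, where the contrast rests on replicate 1 of the mutant alone, 50 members were called, 45 lower and 5 higher, and the median was -0.42. Since both comparisons share their controls, they are given side by side and no overlap between them is drawn on.

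**Figure D2:**
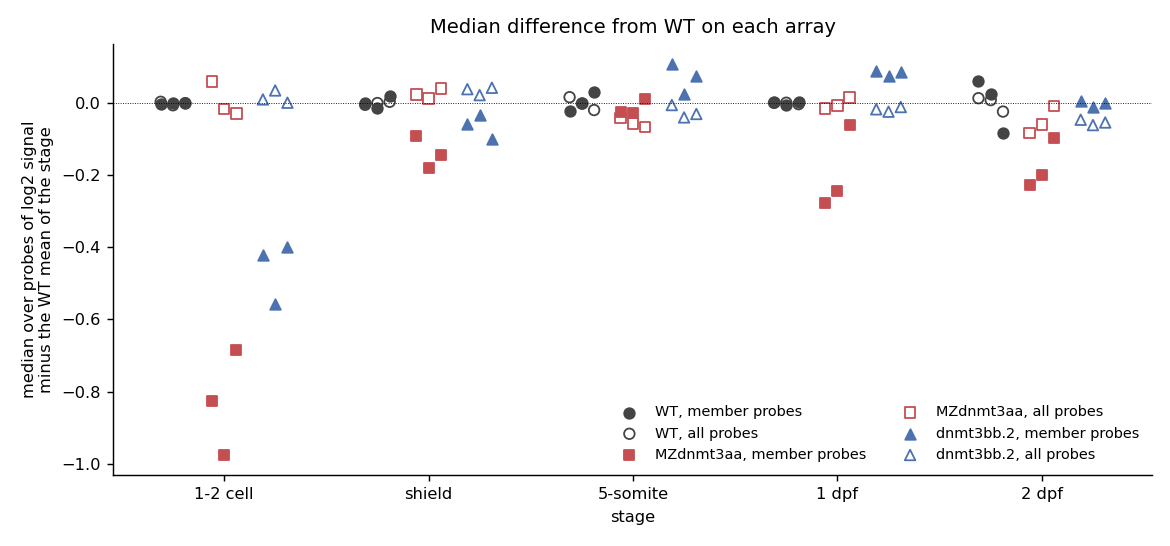
Median over member probes (filled) and over all probes (open) of the log2 signal score on each array minus the WT mean of the stage, by stage and genotype. At 1-2 cell the member medians are -0.83, -0.98 and -0.68 for MZdnmt3aa-/- and -0.42, -0.56 and -0.40 for dnmt3bb.2-/-, while the medians of all probes stay near 0.

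The lower levels at 1-2 cell were spread over the complexes in MZdnmt3aa-/-, while complex II was split by gene and had the smallest median change. Complex V had 31 of 37 probes called lower and 1 higher (median -0.99), complex IV 17 of 24 lower (median -0.96), complex III 13 of 16 lower (median -0.82), and complex I 33 lower and 5 higher of 56 (median -0.51). Complex II had 3 lower and 1 higher of 9 (median -0.28). Its lower calls were sdhc (-2.03), sdhdb probe 1 (-0.62) and sdhdb probe 2 (-0.79), and sdhda probe 1 was not called (-2.58). The higher call was sdhb probe 1 (0.29), and none of the 3 sdha probes was called (-0.28 to 0.02). Without replicate 1 of MZdnmt3aa-/- the counts were 28 lower and 1 higher for complex V (median -0.90), 17 lower for complex IV (-1.17), 13 lower for complex III (-0.77), 30 lower and 4 higher for complex I (-0.61) and 3 lower for complex II (-0.30). The calls lost without it were those of atp5fa1 probe 1 and atp5fa1 probe 4, atp5if1a probe 2, atp5po probe 3, ndufa5, ndufa9a probe 2, ndufs3 probe 2, ndufv1 probe 3, sdhaf2 probe 3 and sdhb probe 1 (adjusted p from 0.0102 to 0.0273). In dnmt3bb.2-/- complex I had 27 lower and 5 higher of 54 (median -0.45), complex IV 10 lower of 23 (median -0.55) and complex V 17 lower and 1 higher of 37 (median -0.58). Complex III had 4 lower and 1 higher of 16 there (median -0.04), and complex II 2 lower and 2 higher of 9 (median -0.07).

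**Figure D3:**
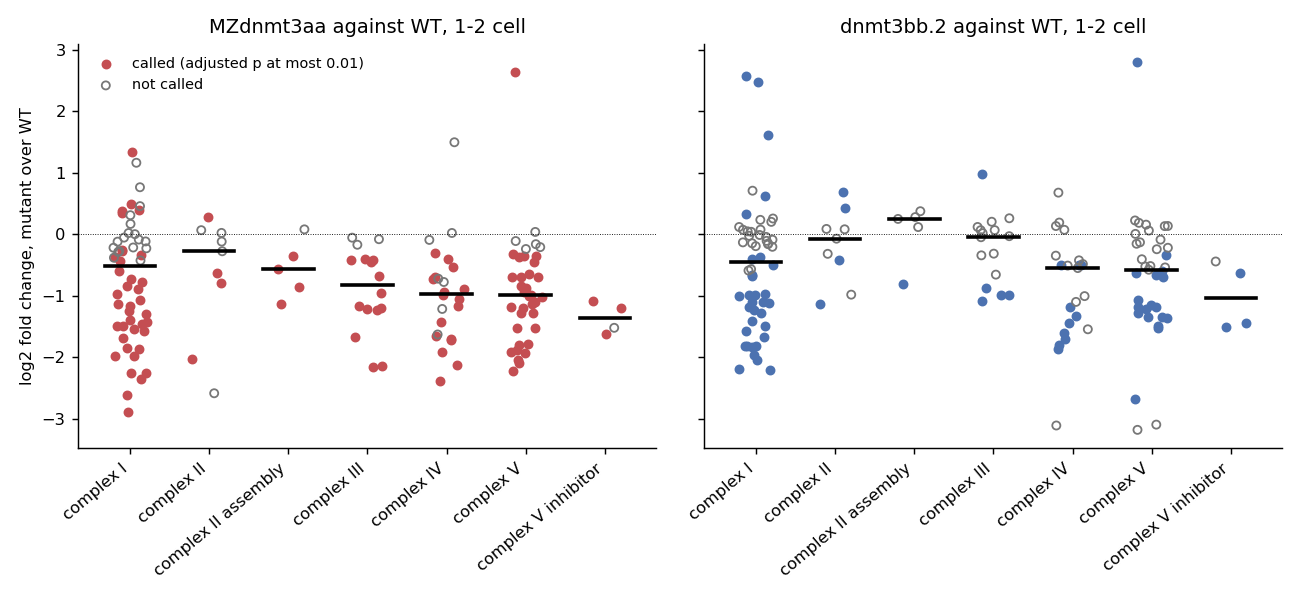
Log2 fold change against WT at 1-2 cell of every tested member probe, by complex, in MZdnmt3aa-/- (151 probes) and dnmt3bb.2-/- (148 probes). Filled points are called by limma, open points are not, and the black bar is the median. All 3 arrays of each group are used, and the median lies between -0.28 and -1.35 in the MZdnmt3aa-/- classes.

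Among complex I accessory subunits the lowest member in MZdnmt3aa-/- was ndufa6. It read 13.54, 13.61 and 13.65 in WT, 10.88, 10.45 and 10.81 in MZdnmt3aa-/-, and 11.38, 11.53 and 11.77 in dnmt3bb.2-/-. No array of either mutant reached the WT values, and the log2 fold changes were -2.89 (SE 0.125, limma adjusted p = 3.43e-05) and -2.04 (adjusted p = 0.000137). The subunit ndufa2 was next, with ndufa2 probe 2 at 12.72, 12.71 and 12.70 in WT, 9.85, 9.85 and 10.61 in MZdnmt3aa-/- (-2.60) and 10.905, 10.997 and 10.799 in dnmt3bb.2-/- (-1.81), and with ndufa2 probe 1 at -2.35 and -1.83. Of the 4 probes of ndufb8, all fell in both mutants (ndufb8 probe 1 -1.98 and -1.96, ndufb8 probe 2 -1.07 and -1.57, ndufb8 probe 3 -1.54 and -2.21, ndufb8 probe 4 -1.56 and -2.19). The accessory subunits ndufa10 (-2.26 and -1.17) and ndufb3 (-2.25 and -1.82) also fell in both.

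The core subunits ndufs1 and ndufv1 of complex I had smaller fold changes at this stage. In MZdnmt3aa-/- ndufs1 probe 1 fell by 0.38, and ndufs1 probe 2 had a fold change of 0.00. For ndufv1, the subunit that binds NADH, ndufv1 probe 3 fell by 0.59, and ndufv1 probe 1 (-0.27) and ndufv1 probe 2 (-0.42) were not called. In dnmt3bb.2-/- neither probe of ndufs1 (ndufs1 probe 1 -0.15, ndufs1 probe 2 -0.01) was called at 1-2 cell, while ndufv1 probe 1 (-0.65) and ndufv1 probe 3 (-0.37) were.

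In complex III the core protein gene uqcrc2a fell in both mutants. Its level by uqcrc2a probe 1 was 13.28, 13.37 and 13.36 in WT, 11.06, 11.04 and 11.45 in MZdnmt3aa-/- (-2.16, adjusted p = 7.91e-05) and 12.35, 12.34 and 12.35 in dnmt3bb.2-/- (-0.99, adjusted p = 0.000149), and uqcrc2a probe 2 gave -2.13 and -0.88. The 3 groups did not overlap. The paired gene uqcrc2b fell in MZdnmt3aa-/- (-0.68) and was not called in dnmt3bb.2-/- (0.07). The other core protein, uqcrc1, fell on all 3 probes in MZdnmt3aa-/- (uqcrc1 probe 1 -0.40, uqcrc1 probe 2 -0.45, uqcrc1 probe 3 -0.42), with no call in dnmt3bb.2-/- at this stage. The Rieske iron-sulfur protein uqcrfs1 fell on all 4 probes in MZdnmt3aa-/- (-0.96, -0.42, -1.16 and -1.24 for uqcrfs1 probe 1 to uqcrfs1 probe 4).

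In complex IV the ubiquitous form of subunit 6a, cox6a1, fell by nearly the same amount in both mutants. By cox6a1 probe 1 the WT arrays read 14.83, 14.85 and 14.83, the MZdnmt3aa-/- arrays 13.12, 13.05 and 13.23, and the dnmt3bb.2-/- arrays 13.13, 13.14 and 13.12, a log2 fold change of -1.70 in each (adjusted p = 1.63e-05 and 2.5e-05). Its second probe gave -1.91 and -1.79 (cox6a1 probe 2), and neither probe was called at any later stage in either mutant. The subunit 7a genes cox7a2a (-2.11 and -1.18) fell in both, and cox7a2l, whose mammalian product helps join complexes III and IV, fell in MZdnmt3aa-/- (-1.42) and was not called in dnmt3bb.2-/- (-0.42). Both genes of subunit 5a fell in MZdnmt3aa-/- (cox5aa probe 1 -0.53, cox5aa probe 2 -0.31, cox5ab -0.99) and neither was called in dnmt3bb.2-/-. The cox4i1 probes fell by 1.16 and 0.70 in MZdnmt3aa-/- (cox4i1 probe 1 and cox4i1 probe 2), and cox4i1 probe 2 also in dnmt3bb.2-/- (-0.50).

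In complex V, atp5pf, coupling factor 6 of the stalk, was the lowest called probe in dnmt3bb.2-/- (-2.68, adjusted p = 2.44e-05) and fell by 2.22 in MZdnmt3aa-/- (adjusted p = 1.91e-05). The catalytic subunit atp5f1b fell on all 5 probes in MZdnmt3aa-/-, by 1.88 (atp5f1b probe 1) to 1.18 (atp5f1b probe 2). Its partner in the catalytic head, the alpha subunit atp5fa1, fell on all 4 probes by 0.36 (atp5fa1 probe 1) to 0.69 (atp5fa1 probe 3). In dnmt3bb.2-/- no probe of atp5f1b (-0.41 to -0.58) or atp5fa1 (-0.09 to 0.19) was called at 1-2 cell. The inhibitor atp5if1a fell in dnmt3bb.2-/- (atp5if1a probe 1 -1.45, atp5if1a probe 2 -1.51), and in MZdnmt3aa-/- atp5if1a probe 2 was called (-1.61, adjusted p = 0.00865) and atp5if1a probe 1 was not (-1.52, adjusted p = 0.0122).

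The genes of the membrane ring, subunit c, moved in opposite ways. The gene atp5mc3a read 10.37, 10.48 and 10.33 in WT at 1-2 cell, 12.97 to 13.10 on the 3 arrays of MZdnmt3aa-/- (2.63, adjusted p = 7.27e-06) and 13.26, 13.04 and 13.26 in dnmt3bb.2-/- (2.79, adjusted p = 3.2e-05). It was the highest called member of that stage in each mutant. By atp5mc3b probe 1, its paired gene read 15.58, 15.59 and 15.61 in WT, 13.36, 13.30 and 13.98 in MZdnmt3aa-/- (-2.04) and 14.19, 14.22 and 14.28 in dnmt3bb.2-/- (-1.36), and its other 3 probes fell too, by 1.79 to 2.09 and by 1.18 to 1.28 (atp5mc3b probe 2, atp5mc3b probe 3 and atp5mc3b probe 4). The third form, atp5mc1, fell in MZdnmt3aa-/- (atp5mc1 probe 1 -0.70, atp5mc1 probe 2 -0.69). These genes encode the same mature protein in mammals, and how far their probes tell the transcripts apart cannot be checked without probe sequences, which holds for the other paired genes too.

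The other members called higher at 1-2 cell were few. In MZdnmt3aa-/- they were ndufa3 (7.61, 7.82 and 7.21 against 6.19, 6.29 and 6.15 in WT, 1.33), ndufa4a probe 3 (0.49), both probes of the complex I subunit ndufa9a (0.38 and 0.40), ndufb4 (0.34) and the iron-sulfur subunit of complex II, sdhb probe 1 (0.29). In dnmt3bb.2-/- they were ndufs8b probe 1 (2.57), ndufs8b probe 2 (2.47), ndufa3 (1.61), uqcrfs1 probe 2 (0.98), sdha probe 1 (0.68), the mitochondrial acyl carrier protein ndufab1a (0.62), sdhb probe 1 (0.42) and ndufa9a probe 1 (0.33). The call of ndufs8b probe 1 was not made in 5 of the 6 fits that leave out an array (adjusted p up to 0.0241), nor with slide as a block, which leaves 1 mutant array in the contrast (2.98, adjusted p = 0.0231).

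**Figure D4:**
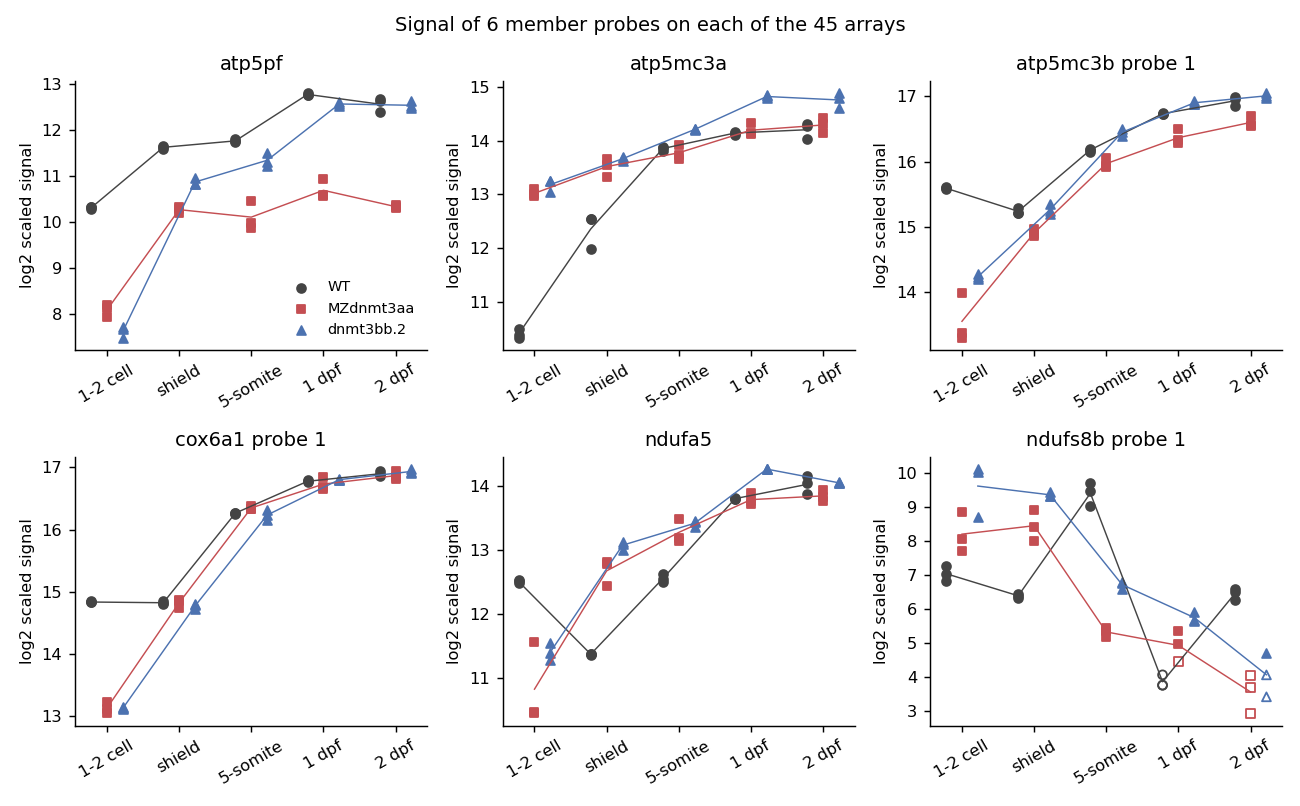
Log2 signal score on each array of atp5pf, atp5mc3a, atp5mc3b probe 1, cox6a1 probe 1, ndufa5 and ndufs8b probe 1 over the 5 stages. Points are arrays, open where not well above background, and lines join the group means. The gene atp5pf stays lower in MZdnmt3aa-/- at every stage, while cox6a1 probe 1 differs from WT at 1-2 cell and is not called later.

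After 1-2 cell, far fewer members were called in MZdnmt3aa-/-, and the median stayed slightly below 0. The median of all probes from shield to 2 dpf was 0.02, -0.05, -0.01 and -0.06, and at 5-somite the members' median was not below it. At shield 17 of 152 members were called, 6 higher and 11 lower (median -0.14), where 12.3% of all probes were called (6.59% higher and 5.68% lower), and the split was 3 higher and 13 lower under the 75th percentile scaling and 4 and 13 under quantile normalization. At 5-somite 20 of 156 were called, 10 in each direction (median -0.01), against 21.3% of all probes (9.82% higher and 11.5% lower), with 7 higher and 11 lower under the 75th percentile scaling. With slide as a random block none of these 20 was called (limma, 0 calls, and 27 members with an unadjusted p under 0.05), so no 5-somite call of MZdnmt3aa-/- named below holds in that fit. At 1 dpf 37 of 156 were called, 4 higher and 33 lower (median -0.18), against 20.8% of all probes called and 9.82% called lower. At 2 dpf 14 of 156 were called, 2 higher and 12 lower (median -0.18), against 12.6% of all probes called (5.70% higher and 6.90% lower). The share of members called in stage order was 11.2%, 12.8%, 23.7% and 8.97%, above that of all probes at 1 dpf only.

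These counts changed when 1 array was left out. Such a fit rests on fewer arrays, so a call lost whichever array is left out does not single out an array. In each comparison limma takes a common spread from both groups, and these differed. For members well above background, the median standard deviation in WT was 0.0308, 0.0431, 0.0467, 0.029 and 0.104 in stage order from 1-2 cell. In MZdnmt3aa-/- it was 0.137, 0.151, 0.095, 0.116 and 0.0899. The part of this difference in the lost calls was not tested. At shield 1 member was called without any 1 of the 3 WT arrays, and 11 without MZdnmt3aa-/- replicate 2. At 5-somite the count was 2, 3 and 4 without WT replicate 1, 2 and 3, 6 without MZdnmt3aa-/- replicate 1 or 2, and 45 without replicate 3. At 1 dpf it was 6, 7 and 6 without the WT replicates, 20 and 11 without MZdnmt3aa-/- replicates 1 and 2, and 95 (81 lower, 14 higher, median -0.25) without replicate 3. At 2 dpf it was 2, 1 and 9 without the WT replicates, and 5 and 3 without MZdnmt3aa-/- replicates 1 and 2. The array medians of the members at 1 dpf were -0.28, -0.24 and -0.06. At that stage the summed signal of blood markers was 89290 to 259800 in MZdnmt3aa-/- and 833800 to 838300 in WT. Heart markers summed to 8509 to 12220 against 18840 to 19710, and markers of the yolk syncytial layer and liver to 382800 to 640400 against 836800 to 872100. Skeletal muscle markers summed to 979100, 1051000 and 1423000 on replicates 1 to 3. On the same replicates 5-somite mesoderm markers summed to 18250, 19760 and 8578 (WT 10520 to 11310). Neuron markers there summed to 11880, 12400 and 17280 (WT 14260 to 14750). At 2 dpf 4 lists were below every WT array. Blood was at 531800 to 696400 against 1219000 to 1319000, and heart at 5859 to 9067 against 13380 to 14840. Skeletal muscle was at 1846000 to 1880000 against 2027000 to 2228000, and yolk syncytial layer and liver at 618900 to 774800 against 881500 to 953000. Neuron markers at 2 dpf summed to 38930, 41230 and 63790 on replicates 1 to 3 (WT 50790 to 56650). Those of 5-somite mesoderm summed to 4631 to 5351 (WT 4909 to 5143). The part of these tissues in the results was not tested.

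In MZdnmt3aa-/- at 1 dpf 9.82% of all probes were called lower. Of the members, 11 of 58 complex I, 7 of 37 complex V and 6 of 26 complex IV probes were. So were 4 of 16 complex III probes, 1 of 10 complex II probes and 4 of the 5 sdhaf probes. These lower calls included ndufs1 probe 1 (-0.54), ndufa1 probe 1 (-1.12) and ndufa1 probe 2 (-0.89). Both ndufa1 probes were lower at 2 dpf as well (-1.04 and -0.75). The factor that attaches the flavin cofactor to SDHA in yeast and mammals, sdhaf2, fell by 1.31 (sdhaf2 probe 1), 1.00 (sdhaf2 probe 2) and 0.83 (sdhaf2 probe 3) at 1 dpf, and it fell at 2 dpf (-1.16, -1.07 and -1.02). The 1 dpf call of sdhaf2 probe 1 was lost in 4 of the 6 fits that leave out an array (adjusted p up to 0.0234). The assembly factor sdhaf3 was called lower at 1-2 cell, 5-somite, 1 dpf and 2 dpf (-0.85, -0.81, -1.03 and -0.74), of which the last 3 calls were lost in 4, 5 and 4 such fits (adjusted p up to 0.0167, 0.0214 and 0.0324).

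In MZdnmt3aa-/- 3 member probes (1.92%) were called in the same direction at 4 or 5 stages, against 3.12% of all probes. They were sdhaf3, cox5b2 probe 1 and atp5pf. The gene atp5pf, which has 1 probe, was the only subunit gene called lower at all 5 stages there. It read 8.13, 7.94 and 8.20 at 1-2 cell, where WT read 10.31, 10.33 and 10.28. It read 10.28, 10.33 and 10.19 at shield, against 11.65, 11.58 and 11.63. At 2 dpf it read 10.36, 10.31 and 10.33, against 12.63, 12.66 and 12.38. The groups did not overlap at any stage, and the log2 fold changes in stage order were -2.22, -1.35, -1.66, -2.08 and -2.22 (SE 0.078 to 0.163, limma adjusted p = 1.91e-05, 0.00074, 0.00147, 0.000293 and 0.000204). The 5-somite call was lost without WT replicate 1 or replicate 2 (adjusted p up to 0.0107) and with slide as a random block (-1.59, adjusted p = 0.0214). In dnmt3bb.2-/- the difference shrank with the stages, from -2.68 over -0.75, -0.42 and -0.21 to -0.02, which was not called. There the 5-somite and 1 dpf calls were each lost in 5 of the 6 fits that leave out an array (adjusted p up to 0.0343 and 0.0194).

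Subunit 5b of complex IV by cox5b2 probe 1 was called lower in MZdnmt3aa-/- from shield to 2 dpf (-1.27, -1.36, -0.72 and -1.27). It read 7.36, 7.56 and 7.22 at shield, where WT read 8.51, 8.90 and 8.54. None of these calls held when WT arrays were left out 1 at a time (adjusted p up to 0.0211, 0.0292, 0.0128 and 0.0164 in stage order), and the shield call was also lost without MZdnmt3aa-/- replicate 1, the 5-somite call without replicate 1 or 2 and the 2 dpf call without replicate 2. The other probes of this gene went the other way at 5-somite, where cox5b2 probe 3 was at least 3.00-fold higher, and at 1 dpf, where cox5b2 probe 2 rose by 0.49. The 5-somite call of cox5b2 probe 3 was lost without any 1 WT array or MZdnmt3aa-/- replicate 1 (adjusted p up to 0.0203).

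The form linked to low oxygen, cox4i2, was lower in MZdnmt3aa-/- at shield and 1 dpf. At shield cox4i2 probe 1 was not well above background on any mutant array and at least 2.51-fold lower than in WT (5.51, 5.51 and 5.46, adjusted p = 0.00365), and cox4i2 probe 2 fell by 1.61. At 1 dpf the probes fell by 0.97 and 1.14 (adjusted p = 0.000516 and 0.000525). The shield calls were lost without any 1 of the WT arrays, and that of cox4i2 probe 1 also without MZdnmt3aa-/- replicate 3 (adjusted p up to 0.0224 and 0.0147). At 1-2 cell cox4i2 probe 2 was at least 2.63-fold lower (adjusted p = 0.00569), a call lost in 5 of 6 such fits (adjusted p up to 0.0243) and reversed with another background correction (0.56). The widely expressed form moved as well, with cox4i1 probe 2 lower at shield (-1.08, adjusted p = 0.00137).

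In complex III uqcrc2a stayed lower in MZdnmt3aa-/- at shield (uqcrc2a probe 1 -1.40, uqcrc2a probe 2 -1.34) and 1 dpf (-0.40 and -0.54). The shield call of uqcrc2a probe 1 was lost without any 1 of the WT arrays (adjusted p up to 0.0157). In dnmt3bb.2-/- uqcrc2a was lower at shield (-0.77 and -0.59) and 5-somite (-0.46 and -0.39) and was not called at 1 dpf or 2 dpf.

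In dnmt3bb.2-/- the members moved both ways after 1-2 cell. At shield 84 of 152 were called, 33 higher and 51 lower (median -0.06), where 51.5% of all probes were called (27.4% higher and 24.1% lower). At 5-somite 51 of 156 were called, 34 higher and 17 lower (median 0.06), against 35.8% of all probes (16.9% higher and 18.9% lower). At 1 dpf 64 of 156 were called, 49 higher and 15 lower (median 0.08), against 46.9% of all probes called (22.8% higher and 24.1% lower). At 2 dpf 11 of 156 were called, 9 higher and 2 lower (median 0.01), against 14.9% of all probes (6.31% higher and 8.61% lower). With slide as a block, which leaves 1 WT array at shield and 2 dpf and 1 mutant array at 1 dpf in the contrast, the counts were 50 at shield, 30 at 1 dpf (24 higher and 6 lower) and 1 at 2 dpf. At 1 dpf summed skeletal muscle markers were 1385000 to 1479000 in dnmt3bb.2-/- and 1242000 to 1278000 in WT, heart markers 12870 to 14160 and 18840 to 19710, and markers of the yolk syncytial layer and liver 652100 to 681000 and 836800 to 872100. Their part in the result was not tested.

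Leaving out 1 array moved these counts as well. At 5-somite 32 members were called without WT replicate 1, 26 without WT replicate 2 and 28 without dnmt3bb.2-/- replicate 3. At 1 dpf the count was 39, 34 and 38 without the WT replicates, 36 without dnmt3bb.2-/- replicate 2 and 39 without replicate 3. At 2 dpf it was 3, 2 and 7 without the WT replicates and 4 without dnmt3bb.2-/- replicate 1 or 2.

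By complex, the lower calls at shield were mainly in complexes V and I. Complex V had 21 lower and 3 higher of 37 (median -0.24), and complex I was split, with 16 higher and 20 lower of 56. All 5 atp5f1b probes fell at shield, by 0.51 (atp5f1b probe 1) to 0.61 (atp5f1b probe 2). All 5 sdhaf probes rose at shield (median 0.90) and at 5-somite (median 1.30), and sdhaf2 rose by 1.30 (sdhaf2 probe 1), 1.38 (sdhaf2 probe 2) and 1.39 (sdhaf2 probe 3) at 5-somite and by 0.72, 0.66 and 0.65 at 1 dpf. At 1 dpf 22.8% of all probes were called higher. Of the members, 17 of 58 complex I, 12 of 37 complex V, 9 of 26 complex IV and 5 of 16 complex III probes were. The 4 atp5mc3b probes, low at 1-2 cell, were called higher at 5-somite (0.27 to 0.41) and 1 dpf (0.17 to 0.28).

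A total of 10 member probes (6.41%) were called in the same direction at 4 or 5 stages of dnmt3bb.2-/-, against 7.35% of all probes. Those higher at all 5 stages were ndufab1a (0.62, 0.50, 0.54, 0.64 and 0.65) and uqcrfs1 probe 2 (0.98, 1.07, 1.21, 0.78 and 0.96). The gene uqcrfs1 has 3 other probes, uqcrfs1 probe 1, uqcrfs1 probe 3 and uqcrfs1 probe 4, with fold changes of 0.12, 0.02 and 0.07 at 1-2 cell and no call at any stage. Those higher at 4 stages were atp5mc3a at the first 4 (2.79, 1.31, 0.36 and 0.68), ndufb9 (0.78, 0.77, 0.51 and 0.56) and ndufab1b (0.27, 0.36, 0.60 and 0.52) from shield on, and sdha probe 1 (0.68, 0.40, 0.73 and 0.94, without shield). Those lower at 4 stages, all from 1-2 cell to 1 dpf, were atp5pf, ndufv1 probe 1 (-0.65, -1.13, -0.40 and -0.45), the delta subunit of the ATP synthase head by atp5f1d probe 1 (-0.69, -0.71, -0.51 and -0.33) and sdha probe 2 (-0.42, -0.81, -0.56 and -0.30).

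Several of these calls were lost in fits that leave out 1 array, which rest on fewer arrays. The 2 dpf calls of ndufab1a and ndufab1b were lost in all 6 fits that leave out an array (adjusted p up to 0.0242 and 0.0381), that of ndufb9 in 5 (0.0259) and that of sdha probe 1 in 3 (0.0176). The 5-somite call of ndufab1b was lost in 4 (0.0156), and that of atp5mc3a without WT replicate 2 (0.0103). The calls of sdha probe 2 at 1-2 cell and 1 dpf were lost in 5 and 3 (0.0432 and 0.0116). With slide as a block and so with 1 array in an arm, the calls of ndufab1a (0.76, adjusted p = 0.0176), ndufab1b, ndufb9 and sdha probe 1 at 2 dpf, of ndufab1b and atp5mc3a at shield (1.12 for atp5mc3a, adjusted p = 0.0155), of sdha probe 2 at 1-2 cell and of atp5pf at 1 dpf were not made.

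For sdha the probes disagreed. In dnmt3bb.2-/- at 1 dpf sdha probe 1 read 14.54, 14.56 and 14.60, above 13.81, 13.85 and 13.85 in WT. At the same stage sdha probe 2 read 12.25, 12.27 and 12.38, below 12.61, 12.57 and 12.61 in WT, and sdha probe 3 fell by 0.45. Which of the probes reports the level of the transcript was not tested.

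The accessory subunit ndufa5 changed direction with the stage. At 1-2 cell it read 12.49, 12.51 and 12.53 in WT, 10.47, 10.45 and 11.56 in MZdnmt3aa-/- and 11.39, 11.55 and 11.28 in dnmt3bb.2-/-. At shield it read 11.38, 11.37 and 11.37 in WT, 12.81, 12.78 and 12.43 in MZdnmt3aa-/- and 13.130, 13.092 and 13.003 in dnmt3bb.2-/-. Both mutants were thus below WT at 1-2 cell and above it at shield, with no overlap. The log2 fold changes were -1.68, 1.30 and 0.72 for MZdnmt3aa-/- at the first 3 stages (adjusted p = 0.00624, 0.00218 and 0.00611) and -1.10, 1.70, 0.86 and 0.46 for dnmt3bb.2-/- at the first 4. The shield call in MZdnmt3aa-/- was lost without any 1 of the WT arrays (adjusted p up to 0.0171).

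The subunit gene ndufs8b also changed direction with the stage. By ndufs8b probe 1 it read 6.46, 6.34 and 6.39 in WT at shield, 8.43, 8.02 and 8.92 in MZdnmt3aa-/- (2.06, adjusted p = 0.00302) and 9.33, 9.32 and 9.44 in dnmt3bb.2-/- (2.97, adjusted p = 2.85e-06). At 5-somite WT had risen to 9.70, 9.04 and 9.48, while MZdnmt3aa-/- read 5.46, 5.35 and 5.19 (-4.07, adjusted p = 0.000179, and adjusted p = 0.0117 with slide as a random block) and dnmt3bb.2-/- read 6.58, 6.81 and 6.77 (-2.69, adjusted p = 0.000159). By this probe both mutants were above WT at shield and below it at 5-somite, without overlap. The second probe of the gene gave -3.14 (adjusted p = 0.0298 with the random slide block) and -2.01 at 5-somite (ndufs8b probe 2). In MZdnmt3aa-/- ndufs8b probe 2 was called higher at no stage, so the shield rise was called by ndufs8b probe 1 alone. In dnmt3bb.2-/- ndufs8b probe 2 was below WT at 5-somite only, so it did not share the fall of ndufs8b probe 1 at 2 dpf. At 2 dpf ndufs8b probe 1 was at least 6.15-fold lower in MZdnmt3aa-/- (adjusted p = 0.00173) and fell by 2.38 in dnmt3bb.2-/- (adjusted p = 0.00319). At 1 dpf, with no WT array well above background, it was at least 3.69-fold higher in dnmt3bb.2-/-. In MZdnmt3aa-/- the shield call was lost without any 1 of the WT arrays (adjusted p up to 0.0195), the 2 dpf call without WT replicate 2 (0.0107) and the 5-somite call of ndufs8b probe 2 without WT replicate 3 (0.0106). In dnmt3bb.2-/- the 2 dpf call was lost in 4 of 6 such fits (0.0154).

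At 5-somite cox6b1, ndufa4b and cox8b, which rose late in WT embryos, were called higher in dnmt3bb.2-/-, and cox6a2 was not. The gene cox6b1 read 10.86, 11.38 and 10.63 in dnmt3bb.2-/-, against 7.28, 6.97 and 7.14 in WT (3.83, adjusted p = 7.47e-05). By ndufa4b probe 1 the mutant read 7.27, 8.38 and 7.52, at least 14.4-fold above WT, where no array was well above background (adjusted p = 0.000985), and ndufa4b probe 2 rose by 3.04 (adjusted p = 0.00468). The muscle form cox8b read 7.23, 7.81 and 7.09 against 4.87, 5.07 and 5.11 (2.36, adjusted p = 0.000346). For these genes the mutant arrays lay above every WT array of the stage and, for cox6b1 and ndufa4b, below or near the WT arrays of 1 dpf. At 1 dpf neither cox6b1 (-0.39) nor ndufa4b probe 1 (-0.07) was called, while ndufa4b probe 2 was called lower. The muscle form cox6a2 was not called at 5-somite (cox6a2 probe 1 -0.50, cox6a2 probe 2 -0.18) and rose at 1 dpf (1.00 and 0.94). Of the other forms, cox5b2 probe 2 rose at 5-somite (1.096). By cox5b2 probe 3 the mutant was at least 2.68-fold above WT, where no array was well above background. Neither cox5b2 probe 1 (0.38) nor either cox4i2 probe (cox4i2 probe 1 0.13, cox4i2 probe 2 0.11) was called. The summed signal of skeletal muscle markers at 5-somite was 17410 to 19450 in dnmt3bb.2-/- and 15560 to 16310 in WT. Markers of 5-somite mesoderm (177800 to 193400 and 127400 to 134600) and blood (4145 to 4564 and 2484 to 2959) were also higher. Neuron markers (2090 to 2450 and 2696 to 2954) were lower. So were markers of the yolk syncytial layer and liver (358100 to 394100 and 486500 to 597900). Heart markers were dim and lower too (59.58 to 89.31 and 105.3 to 130.9). The part of these tissues in the result was not tested.

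In MZdnmt3aa-/- the same forms split by array. At 5-somite cox8b rose (6.67, 6.94 and 6.87 against 4.87, 5.07 and 5.11 in WT, 1.81, adjusted p = 0.000392), a call lost with slide as a random block (adjusted p = 0.0216). At that stage cox6b1 read 8.41 and 8.40 on replicates 1 and 2 and 5.32 on replicate 3, and ndufa4b probe 1 read 6.63 and 6.82 and was not well above background on replicate 3, so neither was called. Skeletal muscle markers summed to 18280 and 17920 on replicates 1 and 2 and to 8062 on replicate 3. At 1 dpf replicate 3 was again the lowest: cox6b1 read 13.11, 13.22 and 11.82 (WT 11.70, 11.75 and 11.53), cox8b 9.20, 9.08 and 8.42 (WT 7.08, 7.22 and 7.01, 1.79, adjusted p = 0.00262) and cox6a2 probe 2 9.40, 9.37 and 8.23 (WT 6.95, 7.10 and 7.07, 1.96, adjusted p = 0.00806). There the muscle markers summed to 979100 and 1051000 on replicates 1 and 2 and to 1423000 on replicate 3, with 1242000 to 1278000 in WT. The 1 dpf calls of cox8b and cox6a2 probe 2 were lost without any 1 of the WT arrays, without MZdnmt3aa-/- replicate 2 and, for cox6a2 probe 2, without replicate 1 (adjusted p up to 0.0166 and 0.0374). By 2 dpf cox6a2 probe 1 was lower than in WT (-0.77, adjusted p = 0.00595). Each of these cox6a2 calls was made by 1 probe only: cox6a2 probe 1 was not called at 1 dpf, nor cox6a2 probe 2 at 2 dpf. One complex II anchor, by sdhda probe 2, was at least 7.35-fold higher at 5-somite in MZdnmt3aa-/- (adjusted p = 0.00781), a call lost in 5 of 6 fits that leave out an array (adjusted p up to 0.032), and sdhda probe 1 was not called (1.43).

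**Figure D5:**
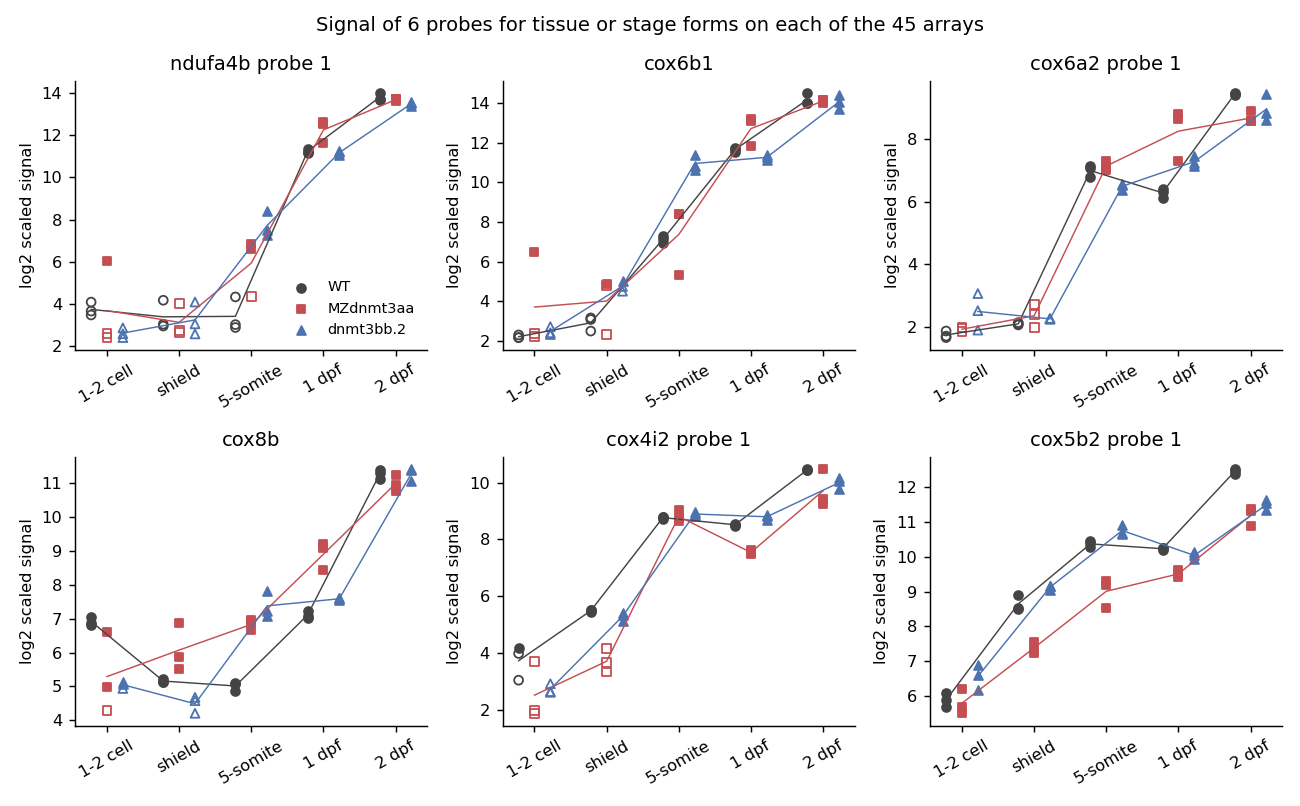
Log2 signal score on each array of ndufa4b probe 1, cox6b1, cox6a2 probe 1, cox8b, cox4i2 probe 1 and cox5b2 probe 1 over the 5 stages. Points are arrays, open where not well above background, and lines join the group means. At 5-somite the dnmt3bb.2-/- arrays of cox6b1 (10.63 to 11.38) lie above those of WT (6.97 to 7.28).

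The small ATP synthase subunit gene atp5mea was low in dnmt3bb.2-/- and not in MZdnmt3aa-/-. At shield atp5mea probe 1 read 10.44, 10.89 and 10.81 in dnmt3bb.2-/-, against 13.20, 13.16 and 13.18 in WT (-2.47, adjusted p = 4.37e-05) and 13.16, 12.82 and 13.75 in MZdnmt3aa-/- (0.06). It remained lower at 5-somite (-1.24) and 1 dpf (-1.40), and atp5mea probe 2 gave -2.27, -0.83 and -0.80. At 1-2 cell the dnmt3bb.2-/- arrays were split, at 10.83, 14.19 and 10.70 against 15.13, 15.07 and 15.05 in WT, and at 2 dpf at 14.41, 14.39 and 10.93, so neither stage was called (-3.17 and -1.31). The difference between both mutants was not tested. The same arrays stood apart for cox7a1, which read 10.14, 2.15 (not well above background) and 10.10 at 1-2 cell and 9.19, 9.34 and 11.85 at 2 dpf. Between these stages cox7a1 fell in dnmt3bb.2-/- (-1.36, -0.70 and -0.29), and in MZdnmt3aa-/- it fell at 1-2 cell (-1.72). At 2 dpf sdhaf2 probe 1 likewise read 10.80, 11.05 and 12.55 in dnmt3bb.2-/- (0.00, not called).

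Whether the difference from WT depended on stage was tested by the interaction of genotype and stage on 30 arrays per mutant. In MZdnmt3aa-/- 121 of 156 members were called, against 49.7% of all probes, and in dnmt3bb.2-/- 128 of 156, against 59.1%. Over the 5 stages 24 members (15.4%) were called at no stage in MZdnmt3aa-/- and 24 in dnmt3bb.2-/-, against 35.3% and 26.1% of all probes tested. Members called in both directions at different stages numbered 7 in MZdnmt3aa-/- (4.49%, against 5.23% of all probes) and 33 in dnmt3bb.2-/- (21.2%, against 11.8%).

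Probes of one gene share their transcripts and are not replicates. Of 41 genes with more than 1 tested probe at 1-2 cell in MZdnmt3aa-/-, 23 had every probe called in the same direction and none had calls both ways. In dnmt3bb.2-/- the numbers were 13 of 40, and sdha had calls both ways. How often the probes of other genes on the array were called together was not counted. With 1 probe per gene, 67 of 90 genes were called in MZdnmt3aa-/-, 62 lower and 5 higher, and 49 of 88 in dnmt3bb.2-/-, 42 lower and 7 higher. Of all probes, 57.3% were called in MZdnmt3aa-/- (28.8% lower and 28.5% higher) and 31.4% in dnmt3bb.2-/- (16.3% and 15.1%).

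Other mitochondrial gene lists were measured beside the subunits. Of all probes at 1-2 cell, 28.8% were called lower and 28.5% higher in MZdnmt3aa-/-, and 16.3% and 15.1% in dnmt3bb.2-/-. The mitochondrial ribosome, which translates the subunits made inside the organelle, had 62 of 101 probes called lower and 14 higher at 1-2 cell in MZdnmt3aa-/- (median -0.56), and 25 lower and 12 higher of 102 in dnmt3bb.2-/- (median -0.05). Electron carriers and assembly factors had 28 lower and 12 higher of 58 in MZdnmt3aa-/- (median -0.49), and 7 lower and 5 higher in dnmt3bb.2-/- (median 0.11). Enzymes of the tricarboxylic acid cycle, which supplies NADH and succinate, had 14 lower and 4 higher of 28 in MZdnmt3aa-/- (median -0.15) and 10 lower and 2 higher of 29 in dnmt3bb.2-/- (median -0.17). Regulators of mitochondrial biogenesis had 5 lower and 8 higher of 19 and 5 lower and 0 higher of 19. The lower share of regulators in MZdnmt3aa-/- (26.3%) and of carriers and assembly factors in dnmt3bb.2-/- (12.1%) lay below that of all probes. Without replicate 1 of MZdnmt3aa-/- the medians there were -0.55 for the mitochondrial ribosome (57 lower and 11 higher), -0.44 for carriers and assembly factors (26 and 11) and -0.14 for the tricarboxylic acid cycle (11 and 4). Of all 31415 probes tested in that fit, 8915 were called lower and 8113 higher.

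In WT the tricarboxylic acid cycle list had 8 probes called higher and 10 lower of 30 from shield to 5-somite (median -0.11), where the mitochondrial ribosome had 79 higher and 8 lower of 102 (median 0.79) and electron carriers and assembly factors 40 higher and 12 lower of 60 (median 0.88). Between 5-somite and 1 dpf 27 of 30 tricarboxylic acid cycle probes rose and none fell (median 1.04). From 1 dpf to 2 dpf 93 of 102 mitochondrial ribosome probes fell and none rose (median -0.48). Of 60 electron carrier and assembly factor probes, 38 fell and 1 rose (median -0.30), while 58 of the 156 members rose and 8 fell. Of all probes, 45.5% were called higher and 32.8% lower from shield to 5-somite. These shares were 35.7% and 34.3% from 5-somite to 1 dpf, and 31.7% and 28.9% from 1 dpf to 2 dpf.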

How the data were processed

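The authors hybridized Cy3-labelled cRNA of 45 embryo pools to 4 x 44K zebrafish arrays, and the deposited values are spot intensities extracted with Feature Extraction 12.0.3.1. Processed signal intensity, median and background intensities, spot flags and the deposited series matrix, whose values are the authors' scaled intensities, were read. The deposited flags, stored as other values of 0 or 1, mark outlier and well above background spots. Each array's processed signal was scaled to a 2% trimmed mean of 2500, as the methods describe, outlier spots were left out, and log2 values of repeated spots were averaged (50 probes, no member). Of 43603 probes, 26421 had 1 symbol by unversioned RefSeq accession (assembly GRCz12tu, used for names only).

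Each mutant was compared with WT of the same stage on 6 arrays, consecutive WT stages on 15 arrays, and genotype by stage on 30, with limma 3.58.1 in R 4.3.3. Probes well above background on at least 1 array compared, with at least 2 values per group, were tested, and Benjamini-Hochberg adjustment ran over all of them, with calls at 0.01. Two-sided p-values are given. The fits were tested on simulated data in which every group had the spread of the WT 1-2 cell arrays. That test does not cover groups of unequal spread, as found here. Named probes are reference subunits, tissue forms, the 3 highest and lowest calls per MZdnmt3aa-/- stage and WT step and the 2 highest and lowest per dnmt3bb.2-/- stage among calls without overlap, those called in one direction at 4 or 5 stages, and the 5 strongest interactions. Groups without signal well above background entered only as bounds. Members, lists and tests were chosen with earlier results of these data known. Alternatives were 75th percentile scaling, quantile normalization, normexp correction (offset 50), the deposited matrix, filters, a fit over 45 arrays, slide and replicate blocks, and leaving out each array. Sequences were not analysed here. The values of 1 named member are not reported here. The array signal over background limits the precision.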

Additional observations from a re-analysis of the deposited data

Results flagged for a closer look

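The tests of genotype by stage showed that the difference from WT was not the same at all 5 stages for 121 of the 156 members in MZdnmt3aa-/- and for 128 in dnmt3bb.2-/- (limma, adjusted p at most 0.01), where 49.7% and 59.1% of all probes were called. In MZdnmt3aa-/- the F statistic over 4 contrasts was highest for cox6a1 probe 1 (143.7), followed by ndufa10 (114.1), ndufb3 (110.6), ndufs8b probe 1 (91.49) and cox6a1 probe 2 (86.99). The first 3 and the last were called lower at 1-2 cell and at no later stage, and ndufs8b probe 1 was called higher at shield and lower at 5-somite and 2 dpf.

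In dnmt3bb.2-/- the F statistic was highest for cox6a1 probe 1 (300.1), followed by ndufa5 (255.2), ndufa2 probe 1 (223.2), atp5pf (191.8) and atp5mc3b probe 1 (185.3). Of these, ndufa5 was called lower at 1-2 cell and higher at the next 3 stages, and atp5mc3b probe 1 was called lower at 1-2 cell and higher at 5-somite and 1 dpf. Both sets of tests share the WT arrays, and in MZdnmt3aa-/- slide and genotype cannot be told apart.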

How the results depend on the processing

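Counts of called members kept within 1.5 times the reported value under 75th percentile scaling, quantile normalization, the deposited series matrix and the strict filter. The deposited matrix holds the same values as the scaled signal used here on every array, so its agreement was fixed in advance. The other settings moved 24 counts. For MZdnmt3aa-/- at shield (17), the count was 10 without the filter, 70 in the fit over all 45 arrays and 0 with the replicate block. At 5-somite (20) it was 31 with normexp, 42 over 45 arrays, 2 with the replicate block and 0 with slide as a random block. At 1 dpf (37) it was 57 over 45 arrays and 2 with the replicate block. At 2 dpf (14) it was 32 with normexp, 9 without the filter, 56 over 45 arrays and 1 with the replicate block. For dnmt3bb.2-/- at 1-2 cell (73) it was 36 with the replicate block. At shield (84) it was 51 with the replicate block and 50 with slide as a fixed block. At 5-somite (51) it was 19 with the replicate block. At 1 dpf (64) it was 20 over 45 arrays, 25 with the replicate block and 30 with the fixed slide block. At 2 dpf (11) it was 18 with normexp, 19 over 45 arrays, 0 with the replicate block and 1 with the fixed slide block. The cause was not tested. Where limma called 0 members, 46 (MZdnmt3aa-/- at shield), 27 (MZdnmt3aa-/- at 5-somite) and 24 (dnmt3bb.2-/- at 2 dpf) had an unadjusted p under 0.05 in the same fit.

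Leaving out each array in turn gave, in stage order, 90 to 122, 1 to 25, 2 to 45, 6 to 95 and 1 to 15 calls for MZdnmt3aa-/-, 50 to 89, 63 to 68, 26 to 41, 34 to 43 and 2 to 9 for dnmt3bb.2-/-, 136 to 139, 124 to 126, 129 to 132 and 58 to 91 for the WT steps, and 114 to 124 and 119 to 134 for the interactions. Only cox4i2 probe 2 in MZdnmt3aa-/- at 1-2 cell changed sign among called values, to 0.56 with normexp from -2.37. Of 1231 values for named probes in the other settings, the deposited matrix among them, 102 lost their call, 49 of them with the replicate block. In the fits that leave out an array, 152 of 1080 values lost it. Of 130 called results for named probes, 38 lost the call in at least 1 such fit. Correlations of same-numbered deviations ran from -0.0637 to 0.251, and no comparison had all of them over 0.1. They were 0.251, 0.12 and 0.0993 for MZdnmt3aa-/- at 1-2 cell and at most 0.0739 elsewhere. Whether replicate numbers pair the arrays of the former is not settled by these values.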
